A study of Mus musculus with 10 samples.

Results

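Dcx, Dclk1, Dclk2, Tubb2b, Tubb3, Stmn1, Stmn2, Stmn3 and Map1b, which build or regulate the microtubules of young neurons, were followed through every array probe that carries 1 of these 9 symbols. That gave 25 of the array's 45281 probes. The samples came from the subventricular zone (SVZ), the germinal layer beside the lateral ventricle, cut out by laser microdissection from BL6 mice aged 8 weeks. All 9 mice had an ischemic stroke in the striatum of 1 side. The 4 Tlx overexpressing mice were 2995, 3155, 3157 and 3163 (replicates 1 to 4) and the 5 wild type mice were c1, c2, 2989, 2996 and 3164 (replicates 1 to 5), with c1 measured on 2 arrays that were averaged and counted as 1 mouse. Tlx is the nuclear receptor encoded by Nr2e1. How the overexpression was driven, the time since the stroke and the side captured are not given in the sources used here. Every mouse carried a stroke, so the comparison asks how the genotypes differed after injury and not what the injury did.

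Adult SVZ stem cells give rise, through dividing progenitors, to neuroblasts that migrate in chains towards the olfactory bulb, and some turn towards an injured striatum. A migrating neuroblast pulls its nucleus along a cage of microtubules and extends a leading process filled with them. Doublecortin, the product of Dcx, binds and stabilises that lattice and serves as the standard marker of neuroblasts, and loss of human DCX disturbs cortical migration. The doublecortin-like kinases Dclk1 and Dclk2 join doublecortin domains to a kinase. Tubb2b and Tubb3 encode beta-tubulins, the building blocks of the polymer, with Tubb2b abundant in newborn neurons and Tubb3 a marker of the neuronal lineage. The stathmins bind free tubulin and promote shortening, with Stmn1 common in proliferating and newborn cells and Stmn2 and Stmn3 in neurons. Map1b coats microtubules in growing axons. Dclk1, Stmn2, Stmn3 and Map1b are also used by mature neurons, which lie next to the SVZ in the striatum.

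The RefSeq promoter windows of Dcx and Stmn3 (assembly GRCm38.p6, 250 bases before to 50 bases after the annotated start) show the promoter of a member whose signal differed between the genotypes and that of a member whose signal did not pass the test. The Dcx window lies at chrX:143933170-143933469 on the minus strand and the Stmn3 window at chr2:181314451-181314750 on the minus strand. Capitals mark matches on either strand to AAGTCA, the half-site known for Tlx, to TAATTA, a core read by homeodomain factors such as the Dlx proteins, or to CAGCTG, an E-box read by proneural factors.
Dcx: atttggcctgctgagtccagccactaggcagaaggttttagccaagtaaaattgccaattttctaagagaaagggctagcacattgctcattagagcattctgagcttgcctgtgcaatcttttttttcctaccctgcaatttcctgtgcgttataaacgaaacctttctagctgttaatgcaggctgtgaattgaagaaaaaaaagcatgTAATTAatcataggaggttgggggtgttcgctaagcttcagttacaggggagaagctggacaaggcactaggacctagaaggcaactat
Stmn3: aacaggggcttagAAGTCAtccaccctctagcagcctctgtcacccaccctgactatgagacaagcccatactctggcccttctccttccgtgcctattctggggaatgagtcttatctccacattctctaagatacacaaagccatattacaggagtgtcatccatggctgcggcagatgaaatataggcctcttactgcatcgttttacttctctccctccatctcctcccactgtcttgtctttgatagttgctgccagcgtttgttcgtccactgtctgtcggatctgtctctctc
The Dcx window held TAATTA at position -39 from the start, the same on both strands, and held neither of the other motifs. The Stmn3 window held AAGTCA at position -237. Of 32851 windows of this length in the RefSeq table, 15.1% held AAGTCA, 5.29% held TAATTA and 16.3% held CAGCTG. The table gave 8 windows for 6 of the members, among them 2 overlapping ones of Dcx that hold the same TAATTA. It had none for Tubb2b, Stmn1 and Stmn2. The windows of Dclk1, Dclk2, Tubb3 and Map1b held none of the 3 motifs. Stmn3 was thus the only member with an AAGTCA match, so the windows shown do not stand for called and uncalled members. A match describes these letters and is not evidence of binding.

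Values are log2 signals, that is, probe brightness after background correction and quantile normalization. Brightness depends on the probe, so only mice can be compared within a probe, not one probe with another. A probe was called detected in a mouse where its deposited detection p-value was under 0.05. Of the 25 probes, 19 were detected in at least 4 of the 9 mice and entered the test, as part of a test over 20456 probes. The other 6 were probes of Dcx (2), Dclk2, Tubb2b, Tubb3 and Stmn2, with log2 signals of 4.10 to 4.72 over all mice, and 4 of them were detected in no mouse. The 10 arrays were alike in depth of detection, with 44.3% to 45.5% of all probes detected. The 2 arrays of mouse c1 differed by 0.036 to 0.32 on the log2 scale over the 19 tested probes, with a median of 0.14. Of 21 neuroblast markers outside the members 18 were tested, while Cd24a and Dlx5 were detected in no mouse. This count does not identify the tissue. By the same filter 11 of 14 mature neuron, 12 of 15 choroid plexus and 9 of 10 astrocyte markers were tested too.

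Over all 20456 probes, limma called 0.939% as different by genotype (adjusted p under 0.05, Benjamini-Hochberg over every probe tested), and 0.538% as higher in the Tlx overexpressing mice. Among the 19 tested member probes, 2 were called, both higher: the brightest of Dcx and the brightest of Tubb2b. Before adjustment 8 of the 19 had p under 0.05, where 17.6% of all probes did. All 8 were higher, against 8.38% of all probes, and they were both tested probes of Dcx, all 5 of Tubb2b and the tested probe of Dclk2. None of the probes of Dclk1, the stathmins or Map1b was among them. In 3 of the 19 every Tlx overexpressing mouse lay above every wild type mouse, as in 3.24% of all probes, where 6.27% had no overlap in either direction. The median log2 change was 0.19 over the 19 member probes and 0.0037 over all probes. Probes of 1 gene share their transcript, so these counts are not of independent events. The members were also chosen with earlier results of these data known, so the counts are no independent evidence of an excess over all probes.

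**Figure D1:**
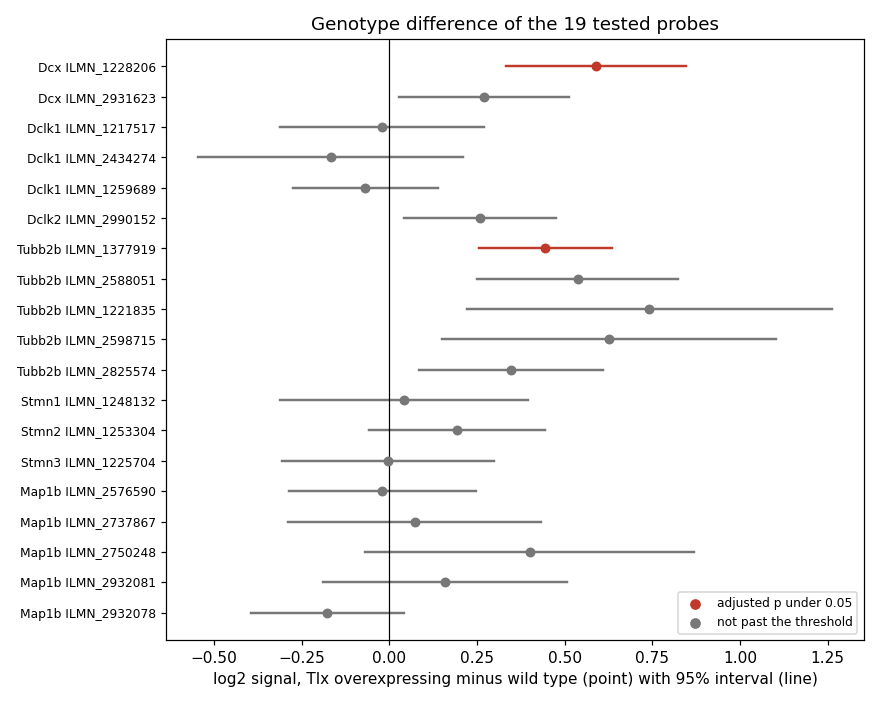
Log2 signal in Tlx overexpressing minus wild type mice (horizontal axis) for each of the 19 tested probes, with the 95% interval from limma. The probes of Dcx and Tubb2b and the probe of Dclk2 have intervals above 0, and 1 probe of Dcx and 1 of Tubb2b passed the threshold over all probes.

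Dcx was higher in the Tlx overexpressing mice on its brightest probe. This probe, ILMN_1228206, read 8.44, 8.43, 8.57 and 8.41 in Tlx overexpressing mice 2995, 3155, 3157 and 3163, against 7.61, 8.29, 7.84, 7.77 and 7.85 in wild type mice c1, c2, 2989, 2996 and 3164. The 4 Tlx overexpressing mice lay close together and above all wild type mice, of which c2 came nearest. Mean Dcx signal was 8.46 ± 0.08 (SD, n = 4) with Tlx overexpression and 7.87 ± 0.25 (SD, n = 5) in the wild type. The genotypes thus differed by 0.59 (SE 0.12, 95% interval 0.33 to 0.85), which is 1.50-fold. The difference passed the test over all probes (limma adjusted p = 0.038), and the exact two-sided permutation test over mice gave p = 0.016, with 0.0079 the smallest p that the 126 ways of choosing 4 of 9 mice allow.

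The mouse numbers fall into ranges whose meaning the labels do not state, and 2 of the ranges hold both genotypes, each with 1 mouse of one genotype. The difference on the brightest Dcx probe was 0.64 among 3 mice of the first range (2995 against 2989 and 2996) and 0.62 among 4 mice of the second (3155, 3157 and 3163 against 3164). With the range as a block it was 0.63 (SE 0.15, limma adjusted p = 0.14). Its size moved little, 0.52 to 0.69, over 21 other ways of fitting the data, while its call was kept in 9 of them: it was lost without 3155, 3157, 3163, c1, 2989, 2996 or 3164, each left out alone (limma adjusted p up to 0.16). Without wild type mouse c2 it was 0.69 (limma adjusted p = 0.0080).

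The second detected Dcx probe, ILMN_2931623, followed the first at a smaller difference. It read 7.28, 7.42, 7.51 and 7.37 in the Tlx overexpressing mice, against 6.81, 7.43, 7.11, 7.19 and 7.09 in the wild type mice. Here wild type mouse c2 lay inside the range of the Tlx overexpressing mice, and the groups overlapped. The difference was 0.27 (SE 0.11, 95% interval 0.029 to 0.51) and did not pass (limma adjusted p = 0.23, exact permutation p = 0.063). It was 0.13 within the first range of mouse numbers and 0.34 within the second. The mean of both probes differed by 0.43 (limma adjusted p = 0.083). The remaining probes were near background: ILMN_1256251 was detected only in wild type mouse 2996 (4.51) and ILMN_1251963, annotated to the cDNA clone AK048410, in no mouse.

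**Figure D2:**
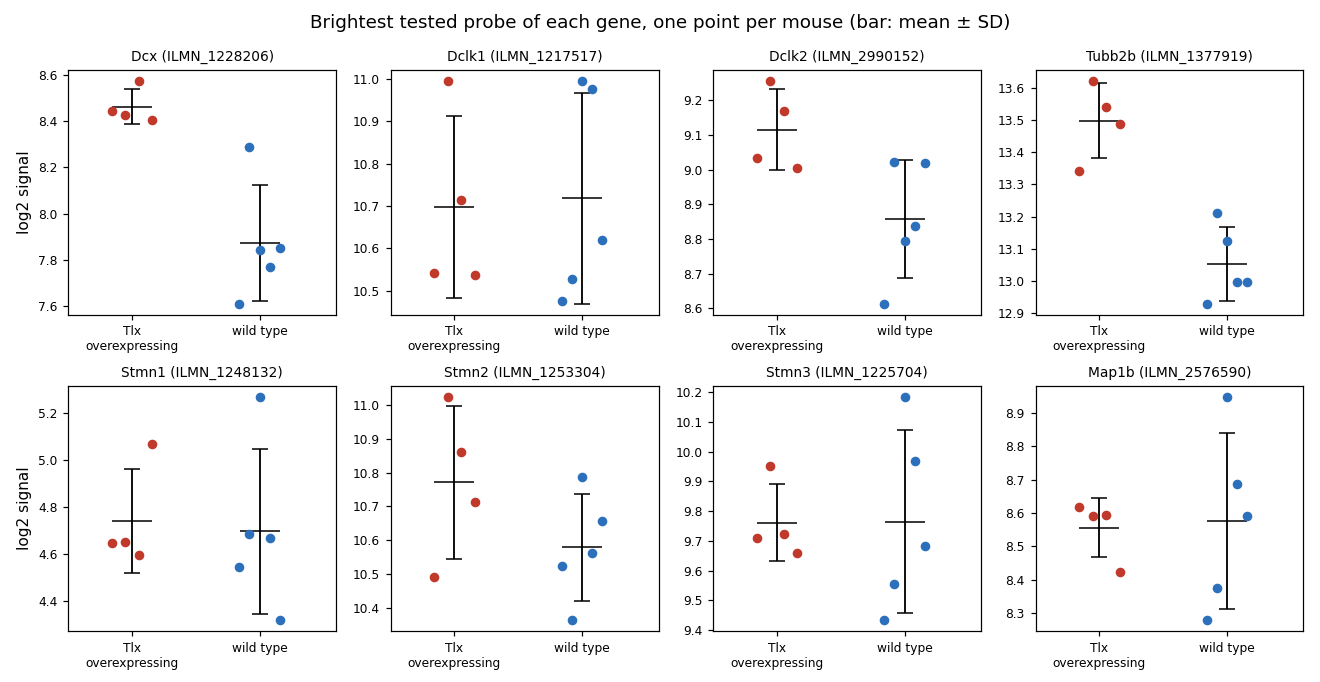
Log2 signal (vertical axis, a scale of its own in each panel) of the brightest tested probe of each of the 8 genes with one, with a point per mouse and the mean and SD as bars. The 4 Tlx overexpressing mice lie above all 5 wild type mice for Dcx and Tubb2b and overlap with them for the other 6 genes.

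Neither doublecortin-like kinase was called. The tested Dclk2 probe, ILMN_2990152, read 9.03, 9.26, 9.17 and 9.01 in the Tlx overexpressing mice, against 8.61, 9.02, 8.80, 8.84 and 9.02 in the wild type mice. Its groups overlapped by a narrow margin, at wild type mice c2 and 3164. The difference was 0.26 (SE 0.10, 95% interval 0.041 to 0.48, limma adjusted p = 0.20), and it kept its sign within both ranges of the mouse number (0.22 and 0.12). With the range as a block it was 0.17. The other Dclk2 probe was detected in no mouse.

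Dclk1 gave a mean difference near 0 on its brightest probe. ILMN_1217517 read 10.54, 11.00, 10.71 and 10.54 in the Tlx overexpressing mice, against 10.47, 10.53, 11.00, 10.98 and 10.62 in the wild type mice. High and low mice occurred in both genotypes, with Tlx overexpressing mouse 3155 level with wild type mice 2989 and 2996. The difference was -0.02 (SE 0.13, 95% interval -0.31 to 0.27, limma adjusted p = 0.95), with -0.44 within the first range of mouse numbers and 0.13 within the second. The other probes, annotated to the clones AK047716 and AK043874, differed by -0.17 (95% interval -0.55 to 0.21) and -0.07 (-0.27 to 0.14), and the second of these lay close to background, at 4.48 to 4.91 over all mice. The first, ILMN_2434274, had opposite signs in the 2 ranges of mouse numbers, -0.88 and 0.22. It was -0.06 without either mouse 2995 or 2989, -0.08 without 2996 and -0.28 without c2. Dclk1 is transcribed from several promoters, and which of its transcripts each probe reads was not tested.

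Tubb2b was higher in the Tlx overexpressing mice on all 5 detected probes. The brightest, ILMN_1377919, read 13.34, 13.62, 13.54 and 13.49 in the Tlx overexpressing mice, against 12.93, 13.21, 13.13, 13.00 and 13.00 in the wild type mice. The genotypes did not overlap, with Tlx overexpressing mouse 2995 and wild type mouse c2 nearest to each other. Mean Tubb2b signal was 13.50 ± 0.12 (SD, n = 4) with Tlx overexpression and 13.05 ± 0.11 (SD, n = 5) in the wild type. The genotypes thus differed by 0.45 (SE 0.09, 95% interval 0.25 to 0.64), which is 1.36-fold (limma adjusted p = 0.037, exact permutation p = 0.0079). The difference was 0.28 within the first range and 0.55 within the second. With the range as a block it was 0.43 (limma adjusted p = 0.18). Of 21 other ways of fitting, 11 kept the call, and the same 7 omissions of a single mouse ended it, at differences of 0.40 to 0.46.

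ILMN_2588051 read 11.50, 12.02, 11.77 and 11.61 in the Tlx overexpressing mice, against 11.20, 11.40, 11.33, 10.79 and 11.20 in the wild type mice. This probe also separated the genotypes and differed by 0.54 (SE 0.13), short of the threshold over all probes (limma adjusted p = 0.074, exact permutation p = 0.0079). It passed without Tlx overexpressing mouse 2995 (0.61, limma adjusted p = 0.035). The other 3 detected probes differed by 0.74 (ILMN_1221835), 0.63 (ILMN_2598715) and 0.35 (ILMN_2825574), with 95% intervals above 0 and limma adjusted p of 0.14 to 0.16. Within the first and the second range of mouse numbers ILMN_2825574 differed by 0.09 and 0.66, ILMN_1221835 by 0.85 and 0.47 and ILMN_2598715 by 0.64 and 0.32. The mean of the 5 probes differed by 0.54 (limma adjusted p = 0.083). A sixth probe annotated to the same transcript, ILMN_1229800, was detected in no mouse.

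Wild type mouse 2996 split the probes of Tubb2b and of Map1b. On ILMN_1221835 the Tubb2b signal was 9.51, 9.995, 9.78 and 9.86 in the Tlx overexpressing mice, against 8.97, 9.52, 9.26, 8.06 and 9.41 in the wild type mice, where 8.06 is mouse 2996. On ILMN_2598715 the same mouse read 7.36, and the other 4 wild type mice read 8.07 to 8.63. On the brightest Tubb2b probe mouse 2996 instead equalled mouse 3164. It was the lowest wild type mouse on 3 of the 5 tested probes of Tubb2b and on 3 of the 5 of Map1b. Without mouse 2996 the change of ILMN_1221835 was 0.49 in place of 0.74, and neither passed (limma adjusted p = 0.12 without the mouse). That of ILMN_2598715 was 0.41 in place of 0.63, and that of Map1b ILMN_2750248 was 0.21 in place of 0.40. The probe positions along the transcripts were not used here.

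**Figure D3:**
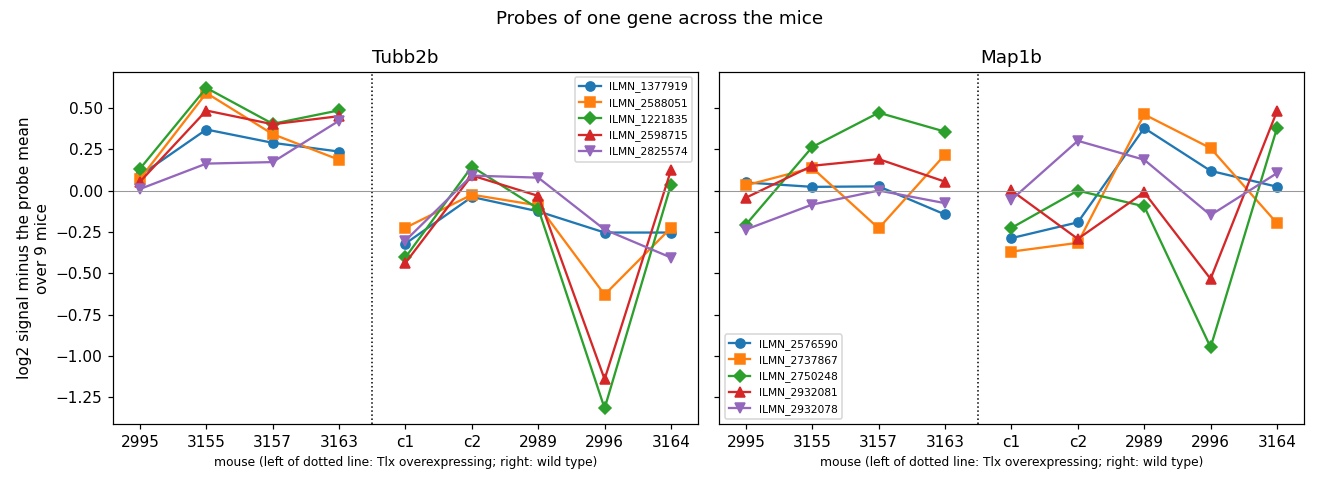
Log2 signal of the 5 tested probes of Tubb2b (left) and of Map1b (right), each minus its own mean over the 9 mice (vertical axis), by mouse (horizontal axis), with the Tlx overexpressing mice left of the dotted line. In wild type mouse 2996 the probes of a gene spread apart: 2 of Tubb2b lie more than 1 below their mean while the brightest does not.

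Tubb3 could not be compared. Its single probe, ILMN_1252657, read 4.41, 4.32, 4.72 and 4.28 in the Tlx overexpressing mice, against 4.35, 4.23, 4.33, 4.21 and 4.42 in the wild type mice. It was detected in Tlx overexpressing mouse 3157 (detection p-value of 0.011) and in no other mouse, where the detection p-value was 0.066 to 0.48. The mature neuron genes Snap25 and Nefl and the second brain beta-tubulin of the Tubb2 pair, Tubb2a, also had no probe detected in any mouse. A probe at background gives no level for its gene. Tubb2a is nearly identical to Tubb2b in sequence, and whether the Tubb2b probes tell them apart was not tested.

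No stathmin was called. Stmn2, the growth cone stathmin, read 10.49, 11.02, 10.86 and 10.71 on ILMN_1253304 in the Tlx overexpressing mice, against 10.52, 10.36, 10.79, 10.56 and 10.66 in the wild type mice. The 2 highest values belonged to Tlx overexpressing mice 3155 and 3157, and mouse 2995 lay within the wild type range. The difference was 0.19 (SE 0.12, 95% interval -0.06 to 0.44, limma adjusted p = 0.41). It was 0.11 without mouse 3155, 0.023 with the range of mouse numbers as a block, -0.18 within the first range and 0.21 within the second. The second Stmn2 probe was detected in no mouse.

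Stmn3 read 9.71, 9.95, 9.72 and 9.66 in the Tlx overexpressing mice, against 9.43, 9.56, 10.18, 9.97 and 9.68 in the wild type mice. The highest values, 10.18 and 9.97, were those of wild type mice 2989 and 2996. The difference was -0.0040 (SE 0.14, 95% interval -0.31 to 0.30, limma adjusted p = 0.99), with -0.37 within the first range of mouse numbers and 0.10 within the second. Stmn1 was measured by 1 dim probe, detected in 4 of 4 Tlx overexpressing and 3 of 5 wild type mice, at 4.65, 4.65, 4.59 and 5.07 in the Tlx overexpressing mice, against 4.54, 4.68, 5.27, 4.67 and 4.32 in the wild type mice. Its difference was 0.04 (95% interval -0.31 to 0.40), with -0.32 within the first range of mouse numbers and 0.45 within the second. Without normexp background correction its difference was 0.019 (SE 0.08, against 0.16 with it).

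Map1b gave no call on 5 tested probes, and the probes differed in sign. The brightest, ILMN_2576590, read 8.62, 8.59, 8.59 and 8.42 in the Tlx overexpressing mice, against 8.28, 8.38, 8.95, 8.69 and 8.59 in the wild type mice. The Tlx overexpressing mice lay inside the wild type range, whose highest values were again those of mice 2989 and 2996. The difference was -0.02 (SE 0.12, 95% interval -0.29 to 0.25, limma adjusted p = 0.95). ILMN_2737867 differed by 0.07 (95% interval -0.29 to 0.43) and ILMN_2750248 by 0.40 (-0.07 to 0.87, limma adjusted p = 0.36). With the range of mouse numbers as a block ILMN_2750248 differed by 0.14, and within the second range by -0.013. The 2 dimmest, ILMN_2932081 and ILMN_2932078, differed by 0.16 and -0.18, each detected in 8 of 9 mice.

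The changes of Dcx and Tubb2b were set against those of the other members on the brightest probes, a comparison added after the values were seen. Dcx and Tubb2b had the largest changes of the brightest probes in these same data, which favours small p. All pairs also share the values of Dcx or of Tubb2b. The p-values below therefore cannot decide whether these genes changed by more. In each mouse the log2 signal of one probe was subtracted from that of Dcx or of Tubb2b, and the result was compared between genotypes by exact two-sided permutation, over 13 pairs. The Dcx change exceeded that of Dclk1 by 0.61, of Map1b by 0.61 and of Stmn3 by 0.59 (exact p = 0.040, 0.032 and 0.040). The Tubb2b change exceeded the same 3 by 0.47, 0.47 and 0.45 (exact p = 0.024, 0.032 and 0.040). Against Dclk2 the excess was 0.33 for Dcx (exact p = 0.024) and 0.19 for Tubb2b (exact p = 0.056). Against Stmn1 it was 0.55 and 0.40 (exact p = 0.056 and 0.063), and against Stmn2 0.40 and 0.25 (exact p = 0.10 and 0.087). After adjustment over the 13 pairs the smallest p was 0.074, so no pair passed. Dcx and Tubb2b themselves differed in change by 0.14 (exact p = 0.18).

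Mature neurons lie beside the SVZ, and a general list of mature neuron markers, not limited to the striatum, moved with part of the members. The level of the mature neuron list is the mean over its 11 tested genes, of 14, after each gene's log2 signal was centred on its own mean. It was -0.0080, 0.21, -0.05 and -0.03 in the Tlx overexpressing mice, against -0.36, -0.39, 0.40, 0.32 and -0.09 in the wild type mice. Wild type mice 2989 and 2996 thus had the highest level and c1 and c2 the lowest. Among the wild type mice the same held for Stmn3, the brightest probes of Map1b and Dclk1, and Map1b ILMN_2737867. Of the 11 genes 5 were positive, 0 were called by limma, 0 had an unadjusted p under 0.05 and the median change was -0.02. With this level as a covariate the SE of Stmn3 was 0.077 in place of 0.14 and its change -0.05, and the SE of the brightest Map1b probe was 0.084 in place of 0.12. The SE of the brightest Dclk1 probe was 0.0862 in place of 0.1347, and that of Map1b ILMN_2737867 was 0.0955 in place of 0.1668. For Dcx the covariate left the change at 0.60 (SE 0.12, limma adjusted p = 0.022), and for Tubb2b at 0.44 (SE 0.09, limma adjusted p = 0.026). Their SEs without it were also 0.12 and 0.09. The same fit called 589 probes over the whole array, against 192 without the covariate, and adjusted p depends on all probes. The striatal projection neuron list had 1 of 9 tested genes positive, 0 called by limma, 2 lower at an unadjusted p under 0.05 and a median of -0.10. Its level was -0.14 to 0.0055 in the Tlx overexpressing mice. In wild type mice c1, c2, 2989, 2996 and 3164 it was 0.13, 0.05, -0.22, 0.09 and 0.22. The striatal list thus ran in another order, with mouse 2989 lowest where the mature neuron list had it highest.

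Neuroblast and dividing cell markers were higher with Dcx and Tubb2b, and choroid plexus markers lower. For scale, 50.9% of all tested probes were positive, 0.538% were called higher and 0.401% lower. At an unadjusted p under 0.05, 8.38% of all probes were higher and 17.6% differed in either direction. Of 18 tested neuroblast markers outside the members all 18 were positive, 6 were called higher, 14 were higher at an unadjusted p under 0.05 and the median change was 0.39. The called ones were the collapsin response mediators Dpysl5 (0.55) and Dpysl3 (0.62), which also act on microtubules, the prokineticin receptor Prokr2 (0.72), the transcription factor Sox4 (0.57), Igfbpl1 (0.72) and the RNA-binding protein Elavl4 (0.68). This list's level was 0.05 to 0.35 in the Tlx overexpressing and -0.29 to -0.01 in the wild type mice. Of 12 tested dividing cell markers all 12 were positive, with Cdca3 and Cenpa called, 11 at an unadjusted p under 0.05 and a median of 0.51. The list's level was -0.02 to 0.46 in the Tlx overexpressing and -0.35 to 0.05 in the wild type mice. Of 12 tested choroid plexus markers all 12 were negative, with Calml4 and Steap1 called, 11 at an unadjusted p under 0.05 and a median of -0.76, and the level was -0.96 to 0.16 in the Tlx overexpressing and 0.05 to 0.62 in the wild type mice.

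Once the choroid plexus level entered the fit, which left 5 calls over all probes, Dcx differed by 0.56 (SE 0.19, limma adjusted p = 0.75) and Tubb2b by 0.27 (SE 0.12, limma adjusted p = 0.82), and the part of this level in their difference was not tested further. In tissue measured in bulk, more cells of a type and more RNA per cell cannot be told apart. Among the other cell types of the region, 9 of 10 tested ependymal markers were negative with Mia called lower, while 3 of 9 astrocyte, 5 of 7 oligodendrocyte and 8 of 9 microglia markers were positive, with 0 called by limma in each of these 3 lists. At an unadjusted p under 0.05, 1 ependymal gene was higher and 3 lower, and 1 astrocyte gene was higher and 1 lower. By the same measure 1 oligodendrocyte gene was higher and 1 lower, and 5 microglia genes were higher. These lists were written with earlier results of the same data known and are no independent evidence of direction.

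**Figure D4:**
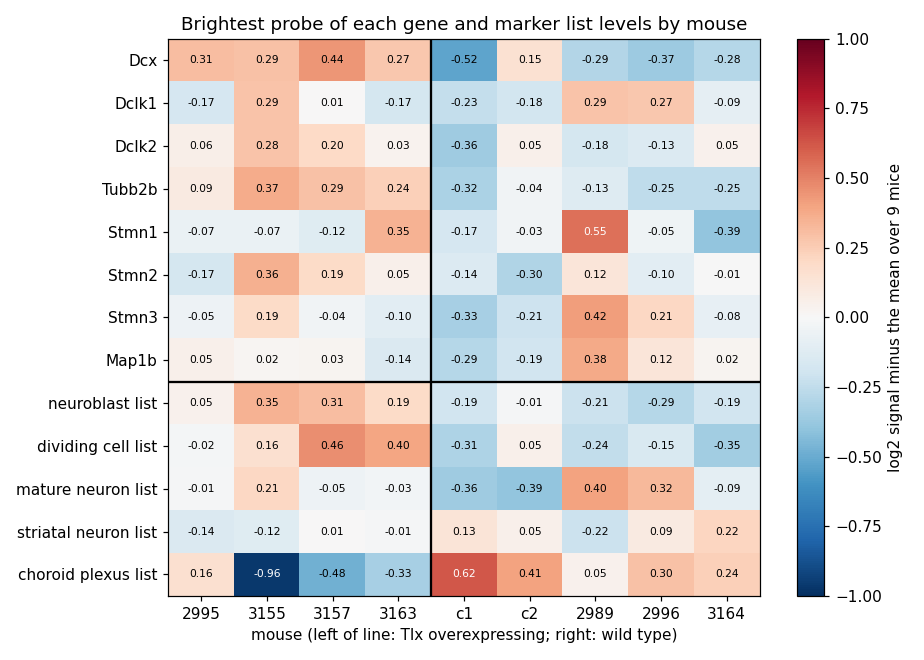
Log2 signal minus the mean over the 9 mice (colour and printed value) for the brightest tested probe of each gene (upper rows) and for the levels of 5 marker lists (lower rows), by mouse, with the Tlx overexpressing mice left of the line. Dcx and Tubb2b are above 0 in all 4 Tlx overexpressing mice, and Stmn3, Map1b and the mature neuron list are highest in wild type mice 2989 and 2996.

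In 4 further lists of microtubule genes, which do not hold the collapsin response mediators, no gene was called. Over all probes 0.939% were called, so lists this short could hold none at the share of the whole array. Before adjustment 17.6% of all probes had p under 0.05, and 8.38% were higher. Among further tubulins and relatives of the members 11 of 17 were tested, 5 were positive and 0 were called by limma (median -0.00020), with 2 higher and 1 lower at an unadjusted p under 0.05. Tubb5, the beta-tubulin of dividing and newborn cells, came nearest at 0.33 (SE 0.09, limma adjusted p = 0.085), with 13.64 ± 0.10 (SD, n = 4) in Tlx overexpressing and 13.31 ± 0.12 (SD, n = 5) in wild type mice, and no overlap. Tubd1, also without overlap, differed by 0.25 (limma adjusted p = 0.15) and Tubb4b by -0.27 (limma adjusted p = 0.22). Among microtubule-associated proteins 20 of 23 were tested and 11 were positive, 0 were called by limma and the median was 0.02, with 2 higher and 0 lower before adjustment. The axonal protein tau, Mapt, came nearest at 0.30 (SE 0.09, limma adjusted p = 0.11), again without overlap, followed by the minus-end protein Camsap2 at 0.28 and the plus-end protein Mapre1 at 0.17. Genes were named here for the smallest p in their list, which favours a lack of overlap. Over all probes, 3.24% had every Tlx overexpressing mouse above every wild type mouse.

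Of 21 tested genes for nuclear migration and motors 16 were positive, 0 were called by limma and the median was 0.09, with 4 higher and 1 lower at an unadjusted p under 0.05. The mitotic kinesin Kif11 differed by 0.41 (SE 0.11, limma adjusted p = 0.078), Kif2c, a depolymerising kinesin of mitosis, by 0.35 and the transport kinesin Kif3b by -0.29, none past the threshold. Of 14 tested genes, among 19, for tubulin folding, severing and modification 4 were positive and 0 were called by limma, with a median of -0.04 and 1 lower before adjustment. The severing enzyme Spast differed by -0.28 (limma adjusted p = 0.19), Tbca by 0.14 and Tbcc by -0.21.

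Genes outside the members whose signal followed the brightest Dcx probe most closely were ranked by Pearson's r over the 9 mice after each genotype's mean was subtracted, as a description of these mice. The 6 closest were Rabl2 (0.98), Mindy1 (0.95), Dnajb1 (0.94), Rlf (0.94), A430005L14Rik (0.93) and Prox1 (0.93), of which Prox1 encodes a homeobox factor of neural progenitors. None of the 6 was called between the genotypes. The second Dcx probe stood at 0.88, a value that 0.13% of tested probes exceeded. The dim Map1b probe ILMN_2932078, whose genotype difference was negative, stood at 0.76, exceeded by 1.04% of tested probes. The Dclk2 probe stood at 0.68 (exceeded by 2.8%) and the brightest Tubb2b probe at 0.67 (exceeded by 3.06%). The other member probes stood between -0.49 and 0.48. The 6 are the highest of 20456 probes ranked over only 9 mice, and no test was made of them. The Dcx probe varied mostly among the wild type mice (SD 0.25, against 0.08 in the Tlx overexpressing mice). There c1 (7.61) and c2 (8.29) lay furthest apart, so these r values rest largely on a few wild type mice.

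**Figure D5:**
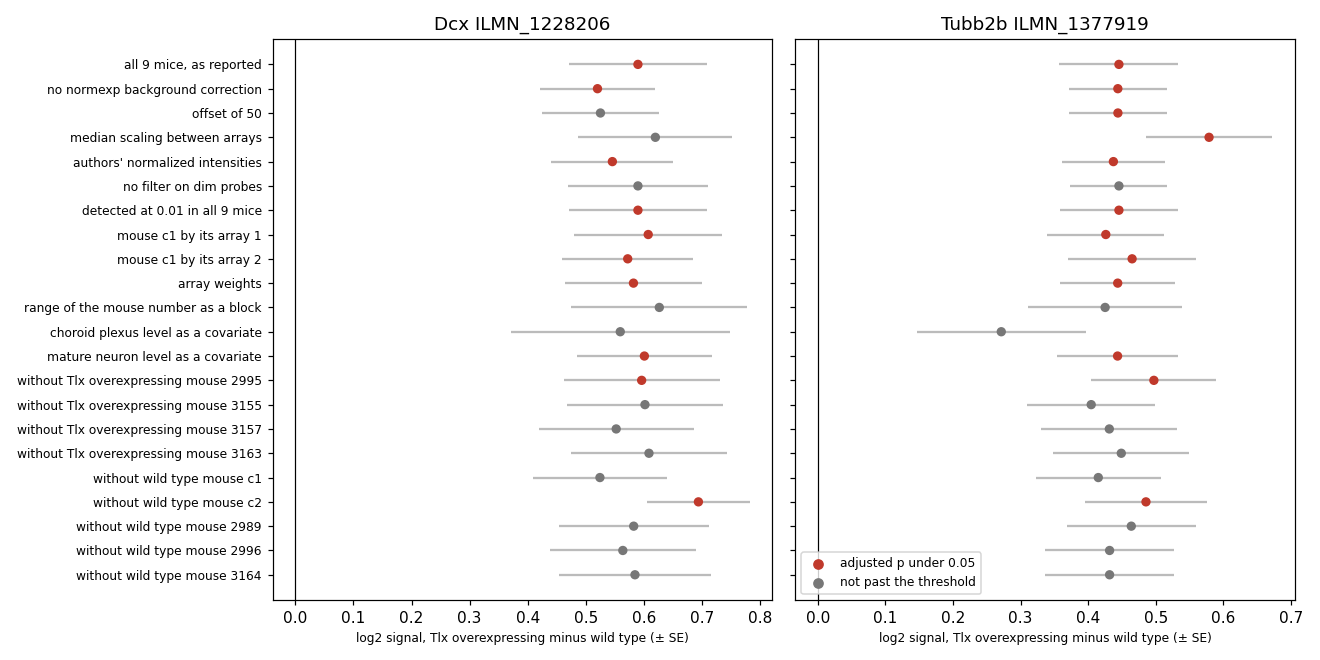
Log2 signal in Tlx overexpressing minus wild type mice with its SE (horizontal axis) for the brightest probes of Dcx (left) and Tubb2b (right) as reported (top) and under 21 alternatives. The changes stay at 0.52 to 0.69 for Dcx and at 0.27 to 0.58 for Tubb2b, and 9 and 11 of the 21 alternatives keep an adjusted p under 0.05.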

How the data were processed

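Biotinylated cRNA was hybridised to Illumina mouse bead arrays, per the labels' protocols. The authors deposited 2 tables of probe intensity. Columns of the table named non-normalized had almost equal medians (40.69 to 40.71), so its intensity values were read as quantile-normalized. Columns of the other deposited table had medians of 36.8 to 43.2 and the same probe ranks, so they were read as intensity before normalization between arrays. The labels do not say whether background was already subtracted. Each deposited detection p-value belongs to 1 probe and array, per the file headers, without a definition.

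The unnormalized values were corrected by normexp, with negative controls estimated out of the detection p-values, offset 16, quantile-normalized and taken to log2 (neqc, limma 3.58.1, R 4.3.3). The detection p-value of mouse c1 was the mean of its 2 arrays. Genotypes were compared with lmFit and eBayes, two-sided. The exact test compares absolute differences of means over all 126 choices of 4 mice. Platform annotation named 34885 probes with 1 gene, 18 with several and 10378 with none, and 34807 symbols matched RefSeq by gene ID. All member probes are given. A gene with several probes is led by its brightest tested one, and list genes were named if called, or else the 3 smallest p. The members and lists were chosen with earlier results of these data known. The fit was tested on simulated data with independent noise for each probe, which does not copy shifts that many probes share within a mouse. Array number limits precision. Alternatives are listed at the end.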

Additional observations from a re-analysis of the deposited data

Results flagged for a closer look

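In 3 of 38 sets of values checked (19 tested probes in each genotype) 1 mouse lay far from the others of its group by Dixon's test at 95%, where chance gives about 1 in 20. Tlx overexpressing mouse 2995 read 7.55 on the Dclk1 probe ILMN_2434274, where the other 3 read 7.95 to 8.01. Tlx overexpressing mouse 3163 read 5.07 on the Stmn1 probe, where the other 3 read 4.59 to 4.65, and it read 8.42 on the Map1b probe ILMN_2576590, where the other 3 read 8.59 to 8.62. None of these probes differed between the genotypes past the threshold, and the cause was not tested.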

How the results depend on the processing

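The number of probes called over the whole array, 192, was 122 with an offset of 50, 56 with no filter on dim probes, 609 with array weights, 51 with mouse number range as a block, 5 with the choroid plexus level and 589 with the mature neuron level as a covariate, and 26 to 758 on leaving out 1 mouse. The number of member probes called, 2, was 1 with an offset of 50 or with median scaling, where Tubb2b kept its call, 0 with no filter, with the block or with the choroid plexus covariate, and 0 to 3 on leaving out 1 mouse (0 without any 1 of 3155, 3157, 3163, c1, 2989, 2996 or 3164). With no filter 45281 probes enter the adjustment.

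The tested probes of Dcx, Tubb2b and Dclk2 kept their sign in all 21 alternatives. Some uncalled probes of the other genes changed sign, among them Stmn2 (0.19 as reported) and Map1b ILMN_2932081 (0.16). Dclk1 ILMN_1217517 was 0.042 with median scaling, 0.011 with array weights and -0.12 to 0.048 on leaving out 1 mouse, and ILMN_1259689 was 0.0057 with the block and 0.082 with the choroid plexus covariate. Stmn3 was 0.036 with median scaling, 0.0080 with c1 by its first array, 0.027 with array weights and -0.087 to 0.10 on leaving out 1 mouse. Map1b ILMN_2576590 was 0.011, 0.0018 and 0.015 under the same 3 settings, 0.087 as the mean of its 5 probes and -0.094 to 0.072 on leaving out 1 mouse. With the choroid plexus covariate Stmn1 was -0.080, Stmn2 was -0.17 and Map1b ILMN_2737867 was -0.17. With the block ILMN_2737867 was -0.027 and Map1b ILMN_2932081 was -0.076. On leaving out 1 mouse Stmn1 was -0.067 to 0.18 and ILMN_2737867 was -0.011 to 0.20. The cause was not tested. Signals near background, as for Stmn1 and Tubb3, limit what the array can show of those genes.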
